A study of Homo sapiens with 2 samples.

Results

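The genes described here carry out DNA replication, from the marking of origins to the supply of nucleotides. They are 49 named genes, chosen by symbol for their roles in replication, of 55773 gene symbols in the tables. All 49 matched, each to 1 entry. NCI-H2030 is an established human lung adenocarcinoma cell line. Of the samples of these cells, 1 was labelled SC and the other miR-494-3p AS. Neither abbreviation is explained in the labels, and the libraries are called SC and AS here. The treatment names the microRNA miR-494-3p, whose gene MIR494 was listed at 0 TPM in both libraries. TPM is a level scaled by transcript length and library size, so that genes can be compared with each other. There was 1 library in each group, so no difference below has a replicate check and no p-value was computed.

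Replication starts in G1 phase, when the origin recognition complex (ORC) with CDC6 and CDT1 loads the MCM2-7 helicase onto origins, a step called licensing. In S phase the kinase CDC7-DBF4 and the factors CDC45, GINS and MCM10 turn the loaded ring into an active helicase. Polymerase alpha and primase then lay down primers, RFC loads the sliding clamp PCNA, and polymerases delta and epsilon extend the strands. E2F transcription factors are known to drive many of these genes at the G1/S boundary.

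Of 18 marker genes looked up, 17 were found. The epithelial keratin genes KRT8 and KRT18 were abundant, with 486 and 558 TPM in SC and 345 and 479 TPM in AS. The leukocyte genes PTPRC and CD3E were listed at 0 in both libraries, while CD68, a lysosomal gene also used to mark macrophages, stood at 285 TPM (SC) and 203 TPM (AS). Of the fibroblast genes, COL1A2 was listed at 0 in both and COL1A1 stood at 26.3 TPM (SC) and 15.8 TPM (AS). Defining genes of lung epithelium were low or missing: NKX2-1 was at 0.032 TPM in both libraries and NAPSA at 1.62 and 1.04 TPM. KRT19 was listed at 0, and CDH1, the epithelial cadherin, was under 0.1 TPM in both. The most common ratio of coverage to FPKM over genes was 3.62 in SC and 3.54 in AS, and many members lay below it.

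To show what stands in front of these genes, promoter windows from RefSeq (build GRCh38.p14) were searched on both strands for 4 words known as E2F sites, TTTCCCGC, TTTCGCGC, TTTGCCGC and TTTGGCGC. Each window runs from 250 bases before to 50 after a transcription start. Windows existed for 45 of the members, all but GINS4, MCM4, MCM5 and POLD3. At least 1 word was present in 24 of these 45 genes (53.3%), against 6.98% of 8344 measured genes with a window and 3.31% of all 35116 windows. The word CCAAT, the binding site of NF-Y, stood in 57.8% of the members and in 42.7% of the measured genes. Words can overlap each other, as they do in MCM2 and MCM6. The 4 windows printed here hold such words in capitals. They are shown because POLA1 and GINS1 had some of the highest ratios of the list, whereas E2F1 and MCM7 were nearly level. All are written 5′ to 3′ on the strand of the gene, and their coordinates are those of GRCh38.p14.
POLA1, chrX:24693668-24693967, plus strand: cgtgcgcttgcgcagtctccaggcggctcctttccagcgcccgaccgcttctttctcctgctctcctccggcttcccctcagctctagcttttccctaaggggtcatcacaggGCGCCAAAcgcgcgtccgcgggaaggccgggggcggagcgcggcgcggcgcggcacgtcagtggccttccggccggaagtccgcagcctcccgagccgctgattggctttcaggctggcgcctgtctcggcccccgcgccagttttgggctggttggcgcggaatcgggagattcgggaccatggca
GINS1, chr20:25407423-25407722, plus strand: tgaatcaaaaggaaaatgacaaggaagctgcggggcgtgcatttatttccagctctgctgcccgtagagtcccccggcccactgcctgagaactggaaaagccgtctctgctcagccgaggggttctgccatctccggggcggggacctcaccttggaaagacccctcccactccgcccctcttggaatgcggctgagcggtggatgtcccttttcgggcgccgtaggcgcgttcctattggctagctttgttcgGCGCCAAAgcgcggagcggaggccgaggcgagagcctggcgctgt
E2F1, chr20:33686336-33686635, minus strand: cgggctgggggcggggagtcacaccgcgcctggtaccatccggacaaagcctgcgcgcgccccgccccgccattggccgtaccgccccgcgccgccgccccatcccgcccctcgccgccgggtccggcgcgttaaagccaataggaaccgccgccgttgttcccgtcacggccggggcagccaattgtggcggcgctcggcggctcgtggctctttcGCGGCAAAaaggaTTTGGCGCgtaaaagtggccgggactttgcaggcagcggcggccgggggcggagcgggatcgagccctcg
MCM7, chr7:100101348-100101647, minus strand: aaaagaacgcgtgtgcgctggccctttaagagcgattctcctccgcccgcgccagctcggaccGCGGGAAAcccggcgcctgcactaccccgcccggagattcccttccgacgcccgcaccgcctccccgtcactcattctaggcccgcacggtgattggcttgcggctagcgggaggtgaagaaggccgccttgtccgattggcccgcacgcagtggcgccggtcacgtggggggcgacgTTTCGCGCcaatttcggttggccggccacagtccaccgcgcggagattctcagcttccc

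The E2F-type word lay at position -137 in POLA1 and at position 5 in GINS1, counted from the transcription start as 0. E2F1 held words at -33 and -20, and MCM7 at -187 and -9. Further windows of MCM7, at other transcription starts, held no such word. High ratios occurred with and without a word. Among 23 measured members with a word the median log2 TPM ratio was 0.94 and 11 were at least 2-fold higher in AS. Among 21 measured members with a window but no such word it was 1.16, with 14 at least 2-fold higher. Of all measured genes 16.5% were. A match of letters is a description and not a site.

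The microRNA named by the treatment has this mature sequence in RefSeq, with the seed (bases 2 to 8) in capitals, and pairs with the complement of the seed in 3' UTRs.
miR-494-3p, chr14:101029681-101029702, plus strand, GRCh38.p14: uGAAACAUacacgggaaaccuc
The longest annotated 3' UTR of each coding gene was searched for the complement of the seed, ATGTTTC, for the 7-base word with a final A, which is TGTTTCA, and for the 8-base site that joins them. Of the 48 measured members, 8 held a site (16.7%), against 27.7% of 10560 measured coding genes. The 8 were CDC6, MCM6, MCM8, GINS1, GINS4, MCM10, POLA1 and RFC3. The first sites of 4 of them are printed with the matched bases in capitals, because these 4 had the highest log2 TPM ratios of the 8.
GINS1: gatatccagcTGTTTCActaccatttt
POLA1: tactaacaaaATGTTTCcccttgtaca
MCM10: acagagagctATGTTTCtgtatctttt
RFC3: atattgttgaATGTTTCActagttaatg

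These sites start at base 1428 of 2564 in the 3' UTR of GINS1, 922 of 1036 in POLA1, 448 of 1944 in MCM10 and 1078 of 1201 in RFC3. The 8 members with a site had a median log2 ratio of 1.51, and 7 of them were at least 2-fold higher. The 40 members without a site had a median of 0.99, and 20 of them were at least 2-fold higher. The median GC content of the transcripts was 43.0% with a site and 48.8% without. Of the 8, all but CDC6 and MCM6 had a mean under 20 TPM over both libraries. At that level 18 of 20 members were at least 2-fold higher. Of all measured genes 16.5% were, and the share among all coding genes with a site was not computed. The parts of base composition and level in the difference between members with and without a site were not tested.

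Most replication genes were higher in AS. With a mean of at least 1 TPM over both libraries, 48 of the 49 members were measured, all but E2F3. On the scale log2((AS + 1)/(SC + 1)) of the TPM values, 27 of these 48 were 2-fold higher or more in AS, and 0 were at least 2-fold lower. Of 13669 measured genes, 16.5% were 2-fold higher and 2.17% were 2-fold lower. The median log2 ratio of the members was 1.09, against 0.28 for all measured genes. With all ratios centred on that 0.28, 17 members were at least 2-fold higher and 41 of 48 above 0, and 9.17% of all measured genes were 2-fold higher and 5.09% 2-fold lower. The members not above 0 on that scale were CDT1, MCM5, MCM7, POLD1, LIG1, TK1 and E2F1. Summed over all 49 members, the level was 1949 TPM in SC and 2844 TPM in AS. The values of each member lie side by side in the plot of levels.

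**Figure D1:**
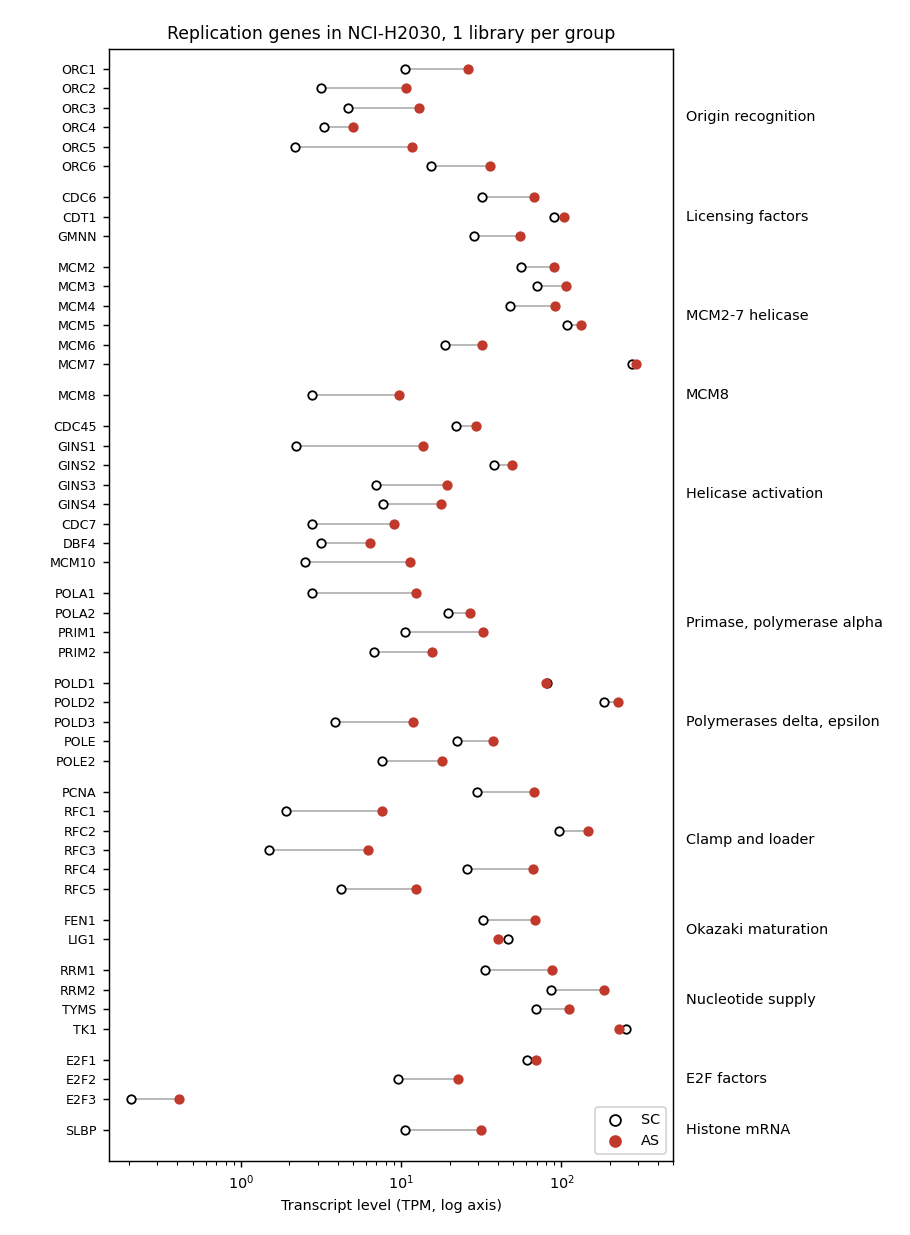
TPM of the 49 replication genes on a log axis, grouped by role, with 1 point per library (open, SC; filled, AS) and a line joining the pair. The filled point lies to the right of the open one for all genes except POLD1, LIG1 and TK1. With ratios centred on all measured genes, CDT1, MCM5, MCM7, E2F1 and E2F3 (not counted as measured) would join these. Levels run from E2F3 at 0.206 and 0.408 TPM to MCM7 at 274 and 292 TPM.

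The origin recognition complex was higher in AS in all of its 6 subunits. ORC1, the ATPase subunit made in the G1 phase of cycling cells (ENSG00000085840, chromosome 1, 52838501 to 52870131, minus strand, GRCh37), had 10.5 TPM (SC) and 26.3 TPM (AS), a 2.5-fold difference. ORC6, the smallest subunit, had the highest TPM of the complex, with 15.4 and 35.8 TPM. Levels of the core subunits were lower. ORC2 was at 3.13 and 10.8 TPM (log2 ratio 1.51), and ORC3 at 4.62 and 13.0 TPM (1.31). ORC5 had the largest ratio, at 2.17 and 11.6 TPM (1.99), and ORC4 the smallest, at 3.29 and 5.02 TPM (0.49). In coverage, described further on, their order was the opposite, with 0.89 for ORC5 and 1.09 for ORC4. In TPM, 5 of the 6 subunits were at least 2-fold higher, beside 16.5% of all measured genes. In the assembled loci 3 of the 6 were, with ORC3 at 0.50 and ORC5 at 0.53, beside 16.1% of genes with a locus. After the subtraction by GC content 1 of the 6 was, beside 4.79% of coding genes.

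Of the loading factors, only CDC6 passed 2-fold, beside 16.5% of all measured genes in TPM. CDC6, the ATPase that joins ORC to load the helicase, had 31.7 TPM (SC) and 67.1 TPM (AS), with a log2 ratio of 1.06. Its partner CDT1 (ENSG00000167513, chromosome 16, 88869621 to 88875666, plus strand) was at 90.2 and 103 TPM, a ratio of 0.19. GMNN encodes geminin, the inhibitor that binds CDT1 outside G1, and stood at 28.3 and 55.3 TPM (0.94). After the subtraction by GC content described further on, none of the 3 passed 2-fold. In TPM CDT1 was then at 0.47, CDC6 at 0.43 and GMNN at 0.17. The values in coverage were 0.47, 0.38 and 0.11. In TPM there was 3.19 times as much CDT1 as GMNN transcript in SC, and 1.86 times as much in AS. In coverage, described further on, it was 9.03 and 5.28 times as much.

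All 6 subunits of the MCM2-7 helicase had higher TPM in AS, none of them by 2-fold, and MCM5 and MCM7 were no longer above 0 once ratios were centred on all measured genes. MCM4 came closest, at 47.8 and 91.4 TPM (log2 ratio 0.92). MCM6, the least abundant subunit, was at 18.8 and 32 TPM (0.74), MCM2 at 55.8 and 90.2 TPM (0.68) and MCM3 at 70.3 and 107 TPM (0.59). The abundant subunits MCM5 and MCM7 were nearly level. MCM5 was at 108 and 132 TPM (0.28). MCM7 (ENSG00000166508, chromosome 7, 99690351 to 99699563, minus strand) had the highest level of the whole list in both libraries, at 274 and 292 TPM (0.09). The sum of the 6 subunits was 575 TPM (SC) and 744 TPM (AS), a 1.29-fold difference. The coverage ratios of the 6 differed from their TPM ratios by little, and lay between 0.08 for MCM7 and 0.93 for MCM4. After the subtraction by GC content described further on, the order of the subunits changed. In TPM MCM2 was then highest at 0.74, before MCM4 (0.48), MCM5 (0.34), MCM3 (0.33) and MCM7 (0.14). MCM6 was lowest, at -0.04 in TPM and -0.09 in coverage. MCM8, a relative of these subunits known from recombination repair and not from licensing, was at 2.77 and 9.64 TPM, 3.48-fold higher in AS.

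Of the 8 factors that fire the loaded helicase, 5 were at least 2-fold higher in AS, beside 16.5% of all measured genes. After the subtraction by GC content described further on, 2 were in TPM and 0 in coverage. Of coding genes 4.79% and 2.67% were. MCM10, which joins the helicase at activation (ENSG00000065328, chromosome 10, 13203554 to 13253104, plus strand), had 2.51 TPM (SC) and 11.3 TPM (AS), 4.51-fold higher. The kinase CDC7 was at 2.78 and 9.0 TPM (log2 ratio 1.40). Its activating subunit DBF4 was at 3.13 and 6.36 TPM, with a ratio of 0.83 in TPM and 1.31 in coverage. CDC45, the helicase cofactor, was at 21.9 and 29.3 TPM (0.41).

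In the GINS complex, which binds CDC45, the ratios of the subunits differed widely. GINS1 (ENSG00000101003, chromosome 20, 25388363 to 25433264, plus strand) had the largest TPM ratio of the list, at 2.20 and 13.6 TPM (log2 ratio 2.19), and 1.57 in coverage. GINS3 was at 6.96 and 19.2 TPM (1.34) and GINS4 at 7.65 and 17.8 TPM (1.12). GINS2, the most abundant of them, was at 37.9 and 49.5 TPM (0.37). The ratio of the highest to the lowest subunit was 17.3 in SC and 3.63 in AS.

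Polymerase alpha and primase make the primers of every new strand. POLA1, the catalytic subunit of polymerase alpha (ENSG00000101868, chromosome X, 24712036 to 25015103, plus strand), had 2.78 TPM (SC) and 12.4 TPM (AS), 4.48-fold higher. The primase subunits PRIM1 and PRIM2 were at 10.6 and 32.2 TPM (log2 ratio 1.52) and at 6.79 and 15.5 TPM (1.08). The regulatory subunit POLA2 had the lowest ratio in TPM, at 19.5 and 26.9 TPM (0.45). After the subtraction by GC content described further on, PRIM2 was lowest, at 0.21 in TPM and 0.03 in coverage. POLA2 was then at 0.39 and 0.41, PRIM1 at 0.65 in both, and POLA1 at 1.06 and 1.08. In TPM POLA1 was the least abundant of the 4 in both libraries, whereas in scaled coverage PRIM2 was, at 0.18 (SC) and 0.46 (AS). The highest of the 4 in TPM was POLA2 in SC and PRIM1 in AS.

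In TPM, the polymerases that extend the strands had high ratios in their scarcer subunits and lower ones in their abundant subunits. POLD1, the catalytic subunit of polymerase delta (ENSG00000062822, chromosome 19, 50887461 to 50921273, plus strand), was at 81.2 and 80.0 TPM (log2 ratio -0.02), and its accessory subunit POLD2 at 183 and 225 TPM (0.30). POLD3, another accessory subunit, was at 3.87 and 11.8 TPM (1.40). For polymerase epsilon, POLE, the catalytic subunit, was at 22.4 and 37.3 TPM (0.71) and POLE2 at 7.63 and 17.9 TPM (1.13). POLD2 had a ratio of 0.05 in coverage. After the subtraction by GC content the order turned for polymerase epsilon, with POLE at 0.65 and POLE2 at 0.35. For polymerase delta POLD3 (0.62) stayed above POLD1 (0.25) and POLD2 (0.35).

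Of the sliding clamp and the 5 subunits of its loader, all but RFC2 were at least 2-fold higher in AS in TPM. PCNA, the clamp that tethers the polymerases (ENSG00000132646, chromosome 20, 5095599 to 5107272, minus strand), had 29.5 TPM (SC) and 67.2 TPM (AS), with a log2 ratio of 1.16. Of the loader subunits, RFC4 was at 25.9 and 66.4 TPM (1.33), RFC5 at 4.22 and 12.3 TPM (1.35), and RFC3 at 1.5 and 6.21 TPM (1.53). RFC1, the large subunit, was at 1.91 and 7.60 TPM, a ratio of 1.56 in TPM and 0.97 in coverage. RFC2, the most abundant subunit, was at 95.9 and 146 TPM (0.60). The group had a median log2 ratio of 1.34, and 4 of its 6 members were 2-fold higher in coverage. After the subtraction by GC content described further on, 0 of the 6 were, in TPM as in coverage. The TPM ratios then lay between 0.53 and 0.79. Of all measured genes, 16.5% were 2-fold higher in TPM and 19.3% in coverage before that subtraction. After it, 4.79% of coding genes were in TPM and 2.67% in coverage.

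The 2 enzymes that finish Okazaki fragments had ratios of opposite sign. FEN1, the flap endonuclease, was at 32.5 and 68 TPM (log2 ratio 1.04). LIG1, the DNA ligase that seals the nicks, had 46.5 TPM (SC) and 40.1 TPM (AS), a ratio of -0.21, the smallest of the list in TPM. In coverage TK1 was lower, at -0.14 against -0.13 for LIG1, and in the assembled loci TK1 (-0.14) and POLD1 (-0.08) were lower than LIG1 (-0.04).

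In nucleotide supply 2 of 4 genes were at least 2-fold higher, beside 16.5% of all measured genes. After the subtraction by GC content 0 were, beside 4.79% of coding genes. RRM1 and RRM2, the large and small subunits of ribonucleotide reductase, were at 33.3 and 87.5 TPM (log2 ratio 1.37) and at 85.5 and 183 TPM (1.09). RRM2 (ENSG00000171848, chromosome 2, 10262455 to 10271545, plus strand) exceeded RRM1 2.57-fold in SC and 2.10-fold in AS in TPM. In coverage it did so 3.99-fold and 2.83-fold. Thymidylate synthase, TYMS, was at 68.9 and 111 TPM (0.68). TK1, the thymidine kinase of the salvage route (ENSG00000167900, chromosome 17, 76170160 to 76183314, minus strand), had 252 TPM (SC) and 228 TPM (AS), a ratio of -0.14.

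Among the transcription factors, E2F1 was nearly level at 60.8 and 69.2 TPM (log2 ratio 0.18). E2F2 (ENSG00000007968, chromosome 1, 23832922 to 23857712, minus strand) was at 9.55 and 22.6 TPM (1.16). E2F3, at 0.206 and 0.408 TPM, was below the level at which a gene was counted. SLBP, which binds the stem-loop of replication-dependent histone mRNAs, was at 10.5 and 31.2 TPM (1.48).

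By role, the median log2 TPM ratio was 1.34 for clamp and loader, 1.30 for polymerase alpha and primase, 1.28 for origin recognition and 1.23 for helicase activation. It was 0.94 for CDC6, CDT1 and GMNN, and 0.88 for nucleotide supply. Lower medians belonged to polymerases delta and epsilon (0.71), E2F1 and E2F2 (0.67), MCM2-7 (0.64) and Okazaki maturation (0.42). Each of these medians was above the 0.28 of all measured genes. The groups hold between 2 and 8 measured members, and their ranges overlap. Their order depended on the measure. In coverage helicase activation (1.33) was above clamp and loader (1.31), and after the subtraction by GC content described further on, E2F1 and E2F2 (0.80) and origin recognition (0.68) were above it (0.67).

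Subunits of 1 complex lay closer together in AS than in SC in most complexes. The ratio of the highest to the lowest TPM was 14.6 in SC and 9.11 in AS for MCM2-7, and 63.9 and 23.5 for the 5 RFC subunits. For POLD1, POLD2 and POLD3 it was 47.3 and 19.0. ORC was an exception, with 7.10 in SC and 7.12 in AS, and so was the kinase pair CDC7 and DBF4, with 1.13 and 1.41. Among ORC2 to ORC5 alone it was 2.13 and 2.58. In coverage it was 10.7 and 6.67 for MCM2-7, 48.6 and 29.4 for RFC and 113 and 55.6 for GINS, but 11.6 and 12.9 for ORC and 1.24 and 1.52 for CDC7 and DBF4. Over the 48 measured members the standard deviation of log2(TPM + 1) was 1.90 in SC and 1.5 in AS. Over all measured genes it was 2.28 and 2.10, so that the levels of these libraries as a whole were also closer together in AS. The plot of subunit levels shows the pairs.

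**Figure D2:**
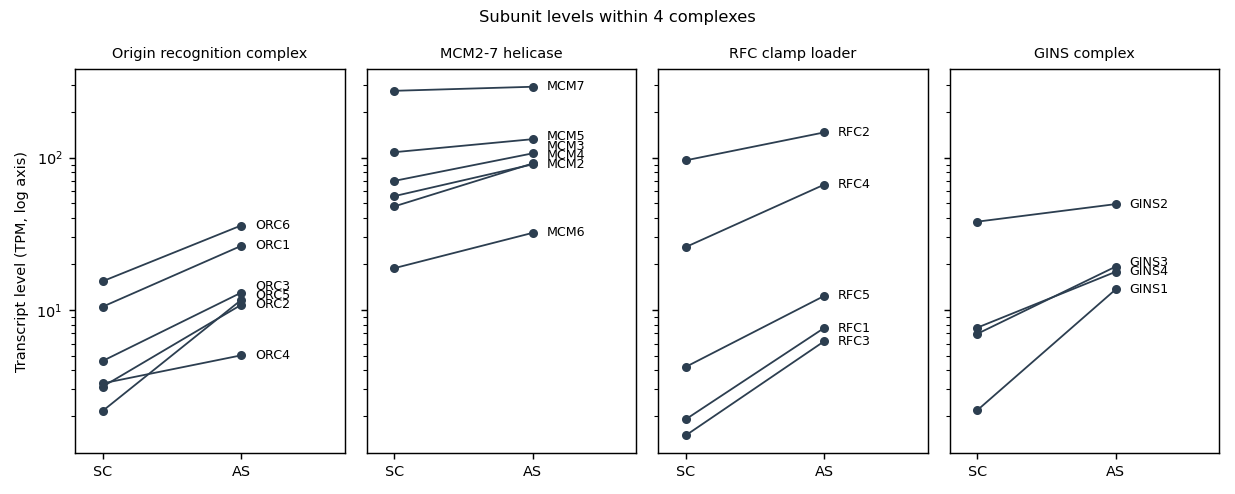
TPM on a log axis of the subunits of 4 complexes in SC and AS, with 1 line per subunit and 1 library per group. Lines converge toward AS for GINS (17.3 to 3.63 between highest and lowest subunit), RFC (63.9 to 23.5) and MCM2-7 (14.6 to 9.11), and not for ORC.

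The coverage column gave a second view of the same libraries. Coverage, taken as the mean read depth per base of a gene, was scaled here to the TPM of its library, with 0.1 added before the ratio. In coverage 26 of the 48 measured members were 2-fold higher or more in AS and 0 were 2-fold lower, against 19.3% and 2% of all measured genes. The median was 1.09, against 0.33 for all measured genes. Both columns put 24 members past 2-fold, 3 passed in TPM alone (ORC5, PRIM2 and RFC1) and 2 in coverage alone (ORC4 and DBF4). These ratios also differ in the value added, 1 for TPM and 0.1 for coverage. With 0.1 added to both, DBF4 passed in both columns as well, and ORC4 alone passed only in coverage. With nothing added, coverage was 2.48-fold higher in AS for PRIM2, 2.01-fold for RFC1 and 1.90-fold for ORC5. The calls of PRIM2 and RFC1 in TPM alone thus rest on the added value. The ratios were within 0.2 of each other for 35 members and at least 0.2 apart for 13, and again for 13, not all of them the same, with 0.1 added to both.

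Apart under both choices were ORC2, ORC4, ORC5, GINS1, DBF4, POLD2, POLE2, RFC1 and RRM1. For GINS1 the scaled coverage equalled its TPM in SC (2.19) but was 6.71 against 13.6 TPM in AS. For RFC1 it was 1.90 in SC and 3.82 in AS, and for ORC5 1.87 and 3.54. GINS3 and PRIM2 were covered far less than their TPM would imply in both libraries. Their deposited coverage was 0.503 and 1.22 for GINS3 and 0.337 and 0.762 for PRIM2. The highest deposited coverage, that of TK1, was 403 and 331. Read counts are not given, so no counting interval could be set beside these values.

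**Figure D3:**
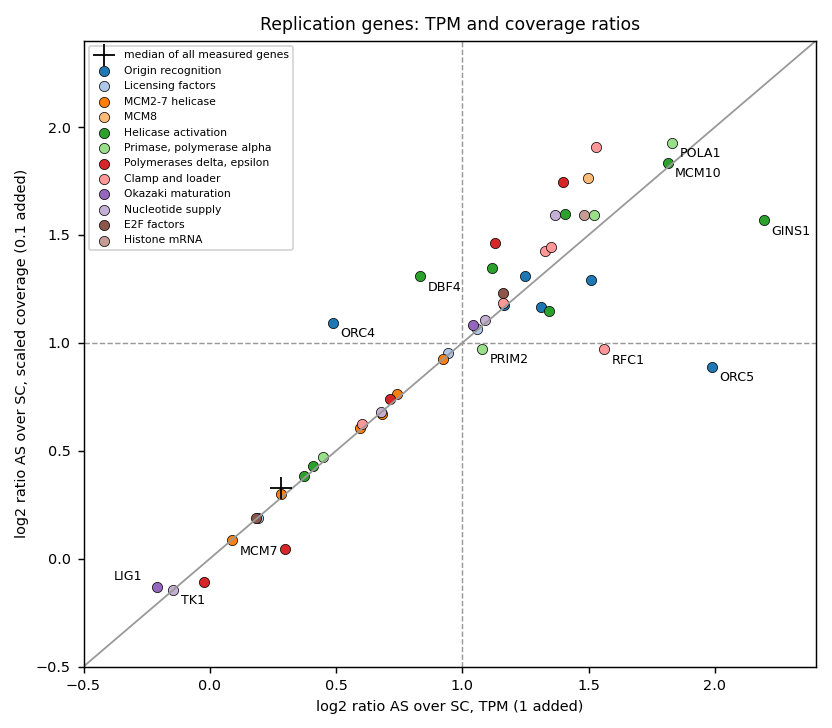
Log2 ratio of AS over SC from TPM (x axis) and from scaled coverage (y axis), 1 point per measured replication gene, colored by role, with the diagonal, dashed lines at a log2 ratio of 1 and a cross at the median of all measured genes. Of the 48 points 35 lie within 0.2 of the diagonal, whereas ORC5 (1.99 and 0.89), RFC1 (1.56 and 0.97) and GINS1 (2.19 and 1.57) lie below it and ORC4 (0.49 and 1.09) above it.

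The tables also list loci assembled from the reads, and each member was paired with the locus that overlapped it best on its strand. In their TPM, 22 of 48 members were 2-fold higher or more and 0 were 2-fold lower, against 16.1% and 3.02% of 13272 genes with a locus. The member median was 0.90. On all 3 measures 20 members were past 2-fold. Ratios differed from those of the annotated genes both ways. Larger ones were those of ORC2 (2.38), RFC3 (1.95) and RRM1 (1.6). The members past 2-fold in TPM that were not so in the loci were ORC3 (0.50), ORC5, MCM8, GINS4 (0.88) and POLA1. The locus ratio of POLA1 was 0.78 (7.21 and 13.1 TPM), of ORC5 0.53 (8.67 and 13.0 TPM), of MCM8 0.67 and of GINS1 1.12. For POLA1 and MCM8 the locus in SC covered clearly less than the joint span with the annotated gene, at a shared fraction of 0.61 and 0.52. Low fractions also occurred among members past 2-fold on all 3 measures. The fraction was 0.11 (SC) and 0.26 (AS) for RFC3, 0.13 and 0.08 for GINS3, and 0.29 in both for POLD3. For ORC2 it was 0.67 and 1. The ratios of such loci need not compare like spans.

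The ratio of a gene followed the GC content of its transcript, in the list as in the whole library. Across the 48 members, which are not independent replicates and share both libraries, the log2 TPM ratio and the GC content had a Spearman rho of -0.73. Across 10766 measured coding genes it was -0.63. When coding genes were cut into 10 bins of equal size by GC content, the median ratio was 0.88 in the lowest bin and -0.27 in the highest. The members had a median GC content of 45.7%, and coding genes one of 50.3%. Of the 30 members under 50% GC, 23 were at least 2-fold higher (76.7%), against 31.6% of coding genes under 50%. Of the 18 members at or above 50%, 4 were (22.2%), against 3.63% of such coding genes. Those 4 were ORC1, FEN1, E2F2 and SLBP. The 50% level was chosen after the values were seen.

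Subtracting from each ratio the median of coding genes in the same GC bin lowered the member median to 0.53, with 43 of 48 members above 0. Of them 6 were then at least 2-fold higher and 0 were 2-fold lower, against 4.79% and 3.16% of coding genes on this scale. The 6 were GINS1 (1.33), E2F2 (1.21), SLBP (1.21), ORC5 (1.12), POLA1 (1.06) and MCM10 (1.04). The 5 below 0 were ORC4, LIG1, GINS2, MCM6 and DBF4. Done with coverage, the subtraction left 5 members 2-fold higher, E2F2 (1.30), SLBP (1.29), POLA1 (1.08), FEN1 (1.02) and ORC1 (1.01), and 0 were 2-fold lower, against 2.67% and 1.8% of coding genes. ORC5 was then at -0.06. What GC content and treatment each contribute cannot be told apart with 1 library in each group.

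**Figure D4:**
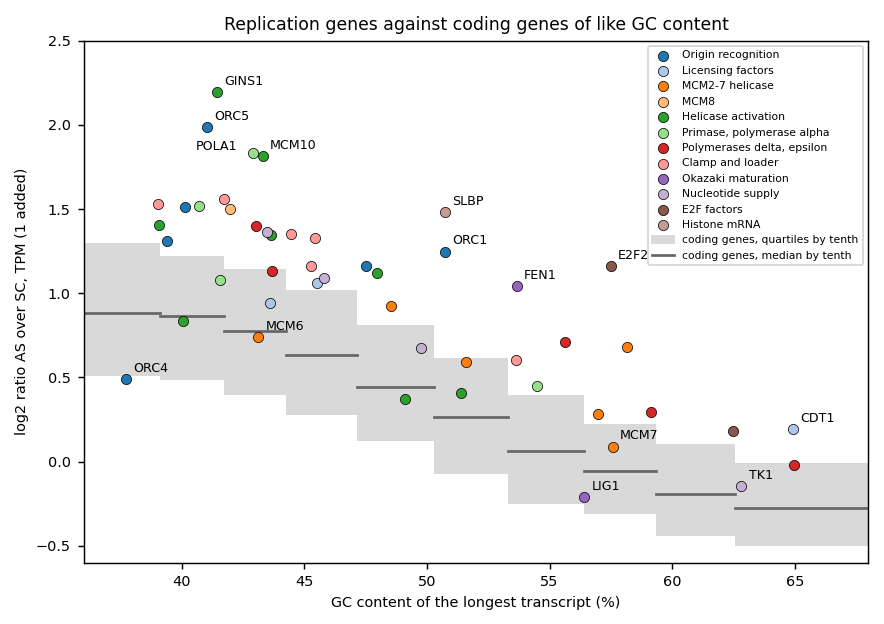
Log2 TPM ratio of AS over SC against the GC content of the longest transcript, 1 point per measured replication gene colored by role. Grey bars give the quartiles and dark lines the median of measured coding genes in each of 10 GC bins. Most members lie above the line of their bin (43 of 48), with SLBP and E2F2 1.21 above it and ORC4, LIG1, GINS2, MCM6 and DBF4 below.

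Of the 20 members with a mean under 20 TPM over both libraries, 18 were at least 2-fold higher (90%), against 24.8% of such coding genes. Of the 28 members with a mean of 20 TPM or more, 9 were (32.1%), against 7.44% of such coding genes. These were ORC6, CDC6, PRIM1, PCNA, RFC4, FEN1, RRM1, RRM2 and SLBP. The mean holds the same values as the ratio, so this split is a description. The lower members had a median GC content of 41.9% and the others one of 51.5%, so that level and base composition moved together. The 20 TPM level was also chosen after the values were seen.

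Some members share their locus with another expressed gene, and whether reads were counted by strand is not given in the sources used here. FEN1 lies almost wholly within the span of FADS2 on the same strand (4265 of 4608 bases), and FADS2 was at 481 TPM (SC) and 301 TPM (AS). PRIM1 overlaps NACA by 33 bases and POLD1 a noncoding gene of 34.0 and 26.8 TPM by 2218 bases, both on the same strand. On the opposite strand, TYMS overlaps ENOSF1 by 3255 bases. The part of these neighbours in the values was not tested.

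Beyond the 49 members, 64 further genes of replication were listed in 5 groups, and 58 were measured. Of these, 23 (39.7%) were 2-fold higher or more in AS and 0 were 2-fold lower, beside 16.5% and 2.17% of all measured genes, with a median log2 ratio of 0.75. After the subtraction by GC content 7 of the 58 (12.1%) were 2-fold higher in TPM and 2 (3.45%) in coverage, against 4.79% and 2.67% of coding genes, and the TPM median was 0.29. Of 25 measured fork and origin accessory factors, 14 were 2-fold higher, with a median of 1.14. After the subtraction 5 of them were in TPM, with a median of 0.36, and 1 in coverage. DONSON, a component that helps to assemble the active helicase, was at 4.98 and 25.8 TPM (log2 ratio 2.17). WDHD1, which links polymerase alpha to the helicase, was at 1.49 and 9.72 TPM (2.11), and TOPBP1, a scaffold of origin firing, at 2.13 and 10.5 TPM (1.88). POLD4, the small subunit of polymerase delta, was lower at 409 and 213 TPM (-0.94), and is named after its value was seen.

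Counts in the other groups were smaller. They stand beside 16.5% of all measured genes that were 2-fold higher in TPM. After the subtraction by GC content 4.79% of coding genes were in TPM and 2.67% in coverage. Of 6 chromatin assembly genes none was 2-fold higher (median 0.74, and 0.09 after the subtraction by GC content), led by CHAF1B (9.05 and 18.4 TPM, 0.95), ASF1A (0.88) and CHAF1A (0.81). Of 9 further genes of nucleotide supply, SAMHD1, which breaks down deoxynucleotides, was 2-fold higher (5.03 and 12.7 TPM, 1.19), ahead of RRM2B (0.78) and DCK (0.74), with a group median of 0.56. After the subtraction by GC content the sign of that median turned, to -0.14 in TPM and -0.10 in coverage, with 6 of the 9 genes below 0 in TPM, RRM2B at -0.10 and DCK at -0.14 among them. Of 8 measured genes of the E2F and RB network 4 were 2-fold higher (median 0.99). E2F8, a repressive E2F, was at 0.952 and 4.02 TPM (1.36), TFDP2, a partner of E2F proteins, at 6.46 and 17.9 TPM (1.34), and the pocket protein gene RBL1 at 1.88 and 5.43 TPM (1.16). After the subtraction 0 of these 8 were in TPM (median 0.32) and 1 in coverage, E2F8 (1.22). Of 10 measured genes that control licensing 4 were 2-fold higher (median 0.41). After the subtraction 2 were in TPM (median 0.28) and 0 in coverage. CUL4B, a scaffold of the ubiquitin ligase that destroys CDT1, was at 5.89 and 27.6 TPM (2.06 in TPM, 1.18 in coverage), DTL, its substrate receptor, at 1.95 and 7.14 TPM (1.47), and the kinase CDK2 at 14.2 and 35.5 TPM (1.27).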

How the data were processed

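RNA was measured in 2 libraries, 1 per group, grouped by the treatment label. Per the file headers, the authors deposited 3 columns, headed coverage, FPKM and TPM, for annotated genes and for loci assembled from the reads. The deposited TPM is treated as a normalized signal, and sums to 973681 (SC) and 968917 (AS) over annotated genes. The sources used here do not name the aligner or quantifier. GRCh38 and hg38 are the builds in the submitters' processing notes, but the last gene on chromosome 1 ends at 249231242 in the deposited tables and at 248937043 in GENCODE 29 (GRCh38). The coordinates are those of GRCh37 and are printed as deposited. GENCODE 29 gave the gene types, the GC content of the longest transcripts and the 3' UTRs, joined on gene identifiers.

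From these files, log2 ratios were computed with 1 TPM added to each value, entries of 1 symbol summed, and a gene counted as measured at a mean of at least 1 TPM. A log2 ratio of 1 or more, or of -1 or less, was counted as a 2-fold difference. To put coverage on the TPM scale, it was scaled by the most common ratio of coverage to FPKM over genes (3.62 in SC, 3.54 in AS) and by that of TPM to FPKM (1.98 and 2.13), and 0.1 was added. Coverage to FPKM differs between genes, and many lie below that ratio. The named genes were all members by role, and in each of the 5 other lists the 3 with the largest absolute TPM ratio. The members and lists were chosen with earlier results of these data known. The alternatives were other pseudocounts, filters, columns, scalings and a subtraction by GC content. The calculations were tested on simulated data. Python 3.11.15, numpy 2.4.6, pandas 2.3.3, scipy 1.17.1 and matplotlib 3.10.9 were used. Precision is limited to what 1 library in each group gives.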

Additional observations from a re-analysis of the deposited data

How the results depend on the processing

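None of the 11 alternatives run gave a member at least 2-fold lower in AS, and the member median was above 0 in all 11 of them, between 0.53 after the subtraction by GC content and 1.14 with a pseudocount of 0.1. The number of members at least 2-fold higher, 27 in TPM as reported, was 12 with a pseudocount of 5, 17 after centring on the median of all measured genes, 14 after trimmed mean scaling and 6 after the subtraction by GC content. The share of all measured genes fell as well, from 16.5% to 5.32% with a pseudocount of 5 and 9.17% after centring. After the subtraction 4.79% of coding genes were 2-fold higher. The subtraction and the centring move every ratio by construction. A larger pseudocount draws ratios of low genes toward 0. The median of all measured genes moved by 0.28 with centring, and trimmed mean scaling moved ratios by 0.35. After trimmed mean scaling 7.81% of all measured genes were 2-fold higher and 6.26% 2-fold lower, and 40 of 48 members were above 0, with 41 after centring. With the FPKM column 20 members were 2-fold higher, and 26 in coverage, 22 in the assembled loci and 25 of the 44 members with a mean of at least 5 TPM. The shares of all genes in these 4 settings were 9.37%, 19.3%, 16.1% and 14.1%. Of 132 role group medians recomputed, 126 moved by less than 1.5-fold. The others were MCM8 in the assembled loci (0.67) and, after the subtraction by GC content, origin recognition (0.68), MCM8 (0.72), helicase activation (0.55), polymerase alpha and primase (0.52) and clamp and loader (0.67). No paired analysis was possible because each group had 1 library.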

Other observations

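E2F3 was too low in the annotated entry to be counted, with 0.206 TPM (SC) and 0.408 TPM (AS). The assembled locus that overlapped it best had 0.883 TPM (SC) and 9.0 TPM (AS). The fraction of the joint span shared with the annotated gene was 0.30 in SC and 0.98 in AS. This gene was singled out after its values were seen.

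POLD2 had a larger level in its assembled locus than in its annotated entry, at 411 against 183 TPM in SC and 448 against 225 TPM in AS. The ratio between libraries was 0.12 in the locus. MIR25 and MIR93, which lie within MCM7 on its strand, were listed at 4.82 and 0.434 TPM in SC and 12 and 2.27 TPM in AS, whereas their host gene was nearly level. They overlap MCM7 by only 84 and 80 bases, and whether their reads came from the MCM7 transcript was not tested.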
